A study of Mus musculus with 6 samples.

Results

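The genes described here encode the enzymes that build, convert and break down sphingolipids and glycosphingolipids, apart from Slc33a1. That gene encodes a transporter and is counted with the enzymes below. They are the rows of the deposited table that carry at least 1 of 4 KEGG entries (sphingolipid metabolism and glycosphingolipid biosynthesis of the lacto and neolacto, the globo and isoglobo and the ganglio series), that carry no lysosome, glycerophospholipid or ether lipid entry, and that have at least 10 counts summed over the libraries. Among all 57180 genes, 95 carry at least 1 of the 4 entries, 19 of these were left out for a barred entry, 17 had too few counts (12 of them with 0 counts), and 59 remained. Of the 19 left out, 16 were tested and 2 were called (12.5%, against 5.96% of all tested genes), the lipid phosphate phosphatase genes Plpp1 and Plpp3, both higher in CD36+ NK (named after their values had been seen). Just inside the limit stood B4galt2 with 10 counts, and just outside it stood Sec1 with 5.

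RNA came from the livers of male wild-type C57BL/6J mice, aged 6 to 8 weeks, in which fibrosis had been induced with the hepatotoxin carbon tetrachloride (CCl4). All mice of both groups received CCl4 (2.5 ml/kg of a 20% solution in olive oil, given into the peritoneum 2 times per week over 4 weeks), and tissue was collected 48 h after the last dose. Cells with the natural killer (NK) phenotype CD3- NK1.1+ were sorted by surface CD36, a fatty acid receptor, into CD36+ NK and CD36- NK, and 400 ng of RNA per sample gave 3 libraries in each group. The comparison asks how samples sorted as CD36+ NK differ from samples sorted as CD36- NK in the same disease. The labels call the samples biological triplicates, and whether animals were pooled is not given in the sources used here.

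Sphingolipids are membrane lipids built on a sphingoid base. The base is joined to a fatty acid to give ceramide in the endoplasmic reticulum, and ceramide is the branch point: a phosphocholine head group turns it into sphingomyelin, a phosphate into ceramide 1-phosphate, a glucose into glucosylceramide, and ceramidases release sphingosine, which sphingosine kinases turn into the signalling lipid S1P. Glucosylceramide gains a galactose to become lactosylceramide, and from lactosylceramide separate transferases open the ganglio, globo and lacto or neolacto series. One product of the ganglio pathway that carries no sialic acid, asialo-GM1, is a classical surface marker of mouse NK cells.

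The libraries held 10292480 to 13787189 counts. The unit of level is CPM, the TMM-scaled read count relative to library size, and differences are given as log2FC, the log2 fold change of CD36+ NK over CD36- NK, with its standard error (SE). Of 14761 genes with enough counts, 5.96% were called, meaning an adjusted p below 0.05 (edgeR's quasi-likelihood test, Benjamini-Hochberg adjustment over all tested genes) and a fold change above 2. Cd36 itself was higher in every CD36+ NK library, at 109.7, 263 and 238 CPM against 14.3, 31.7 and 17.1 CPM (log2FC 3.27, edgeR adjusted p = 0.00615). The 10 NK cell markers examined were present in both groups, yet all 10 were called lower in CD36+ NK, with a summed level of 1133 to 1385 CPM against 5898 to 7702 CPM. Macrophage and Kupffer cell markers summed to 6736 to 9368 CPM in CD36+ NK and 2472 to 5812 CPM in CD36- NK. Of their 10 tested genes 4 were called higher (median log2FC 2.89). In 9 CD36+ NK was above without overlap, against 17.0% of all genes. Lyz2 made up most of the sum in CD36- NK and had a log2FC of 0.09 (edgeR adjusted p = 0.882). The Kupffer cell genes Clec4f and Vsig4 stood out in CD36+ NK replicate 2, with 624 and 181 counts. The other 5 libraries had 0 to 17 and 0 to 10 counts. Timd4, Marco and Cd5l were instead highest in CD36+ NK replicate 3, with 284, 571 and 5464 counts against 199, 429 and 3222 in replicate 2. B cell markers summed to 11668 to 13441 CPM and 7156 to 9378 CPM, with 0 of 8 called by edgeR, 7 at an unadjusted p below 0.05 and 5 higher at an adjusted p below 0.05, which held for 5.07% of all genes. Of the other marker lists, 5 of 8 erythroid, 2 of 8 T cell, 2 of 3 platelet and 1 of 2 hepatic stellate cell genes were called higher, 2 of 8 dendritic cell genes were called higher and 1 lower, 1 of 8 monocyte genes was called lower, and 0 of 8 neutrophil and 0 of 3 sinusoidal endothelial genes were called (1 and 2 at an unadjusted p below 0.05). The hepatocyte genes had too few counts to test. CD36+ NK replicate 1 stood apart in T cell markers (353 CPM against 34.3 to 59.04 CPM in the other 5 libraries), and among the CD36+ NK libraries also in neutrophil markers (4497 against 764 and 967 CPM) and erythroid markers (794 against 389 and 351 CPM). In every CD36+ NK library the summed B cell markers and the summed macrophage and Kupffer cell markers were above the summed NK cell markers. Sums over different genes do not give shares of cells. In these bulk samples a smaller number of cells of a type and less RNA per cell cannot be told apart. The part of this cell content in the results was not tested.

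Among the 59 enzymes, 55 had enough counts for the test. Glucosylceramide synthase (Ugcg) and the galactosyltransferase B3galt5 were called lower in CD36+ NK, while the GM3 synthase St3gal5, the Gb3 synthase A4galt, the branching enzyme Gcnt2 and the galactosyltransferase B4galt4 were called higher. These 6 calls were 10.9% of the tested enzymes, against 5.96% of all tested genes. In each direction the share of all genes called was 2.98%. The adjusted p alone was below 0.05 for 9 of the 55 enzymes, against 10.5% of all genes, and the further genes were Sgms1, higher, and St3gal6 and St3gal4, lower. By direction these were 5 higher and 4 lower enzymes, against 5.07% and 5.44% of all genes. In 24 of the 55 (43.6%) the CPM of the groups did not overlap, against 32.8% of all genes, with CD36+ NK above in 15 (17.0% of all genes) and below in 9 (15.7%). The median log2FC was 0.10 for the enzymes and 0.01 for all genes, and 34 of the 55 lay within 0.5 of 0. It was above 0 in 34 enzymes, against 51.9% of all genes, and the fold exceeded 2 in either direction in 12, against 10.4% of all genes.

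By KEGG entry, of 29 tested genes in the biosynthesis entries of the glycosphingolipid series, 5 were called (17.2%), and of 26 genes that carry only the sphingolipid metabolism entry, 1 was called (3.85%), which was Ugcg. The difference between these shares was not tested. The number of calls also moved with single libraries. Without replicate 2 of CD36+ NK it was 2 (3.64% of the tested enzymes, against 2.81% of all genes in the same fit), and without replicate 2 of CD36- NK it was 10 (17.9% against 7.59%). It was 3 without replicate 3 of CD36+ NK (5.45% against 3.02%). It was also 3 without replicate 1 of CD36- NK (5.45% against 2.80%) and without replicate 3 of CD36- NK (5.36% against 2.82%). Without replicate 1 of CD36+ NK it stayed at 6 (10.9% against 7.38%). Ugcg and Gcnt2 were called under all 15 alternative fits. With replicates 2 and 3 of each group alone, these 2 were the only enzymes called (3.64%, against 2.92% of all genes), and the adjusted p was 0.0636 for St3gal5, 0.0861 for A4galt, 0.0908 for B4galt4 and 0.0953 for B3galt5. Replicate 1 of each group also carries a library name of another form than replicates 2 and 3, and the log2 differences within the forms were -1.35 and -1.40 for Ugcg and 1.32 and 1.82 for Gcnt2. The sign of these values carries no information of its own, since the groups of the called enzymes do not overlap. The sign was the same in both forms for 72.7% of the tested enzymes and 70.6% of all genes.

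**Figure D1:**
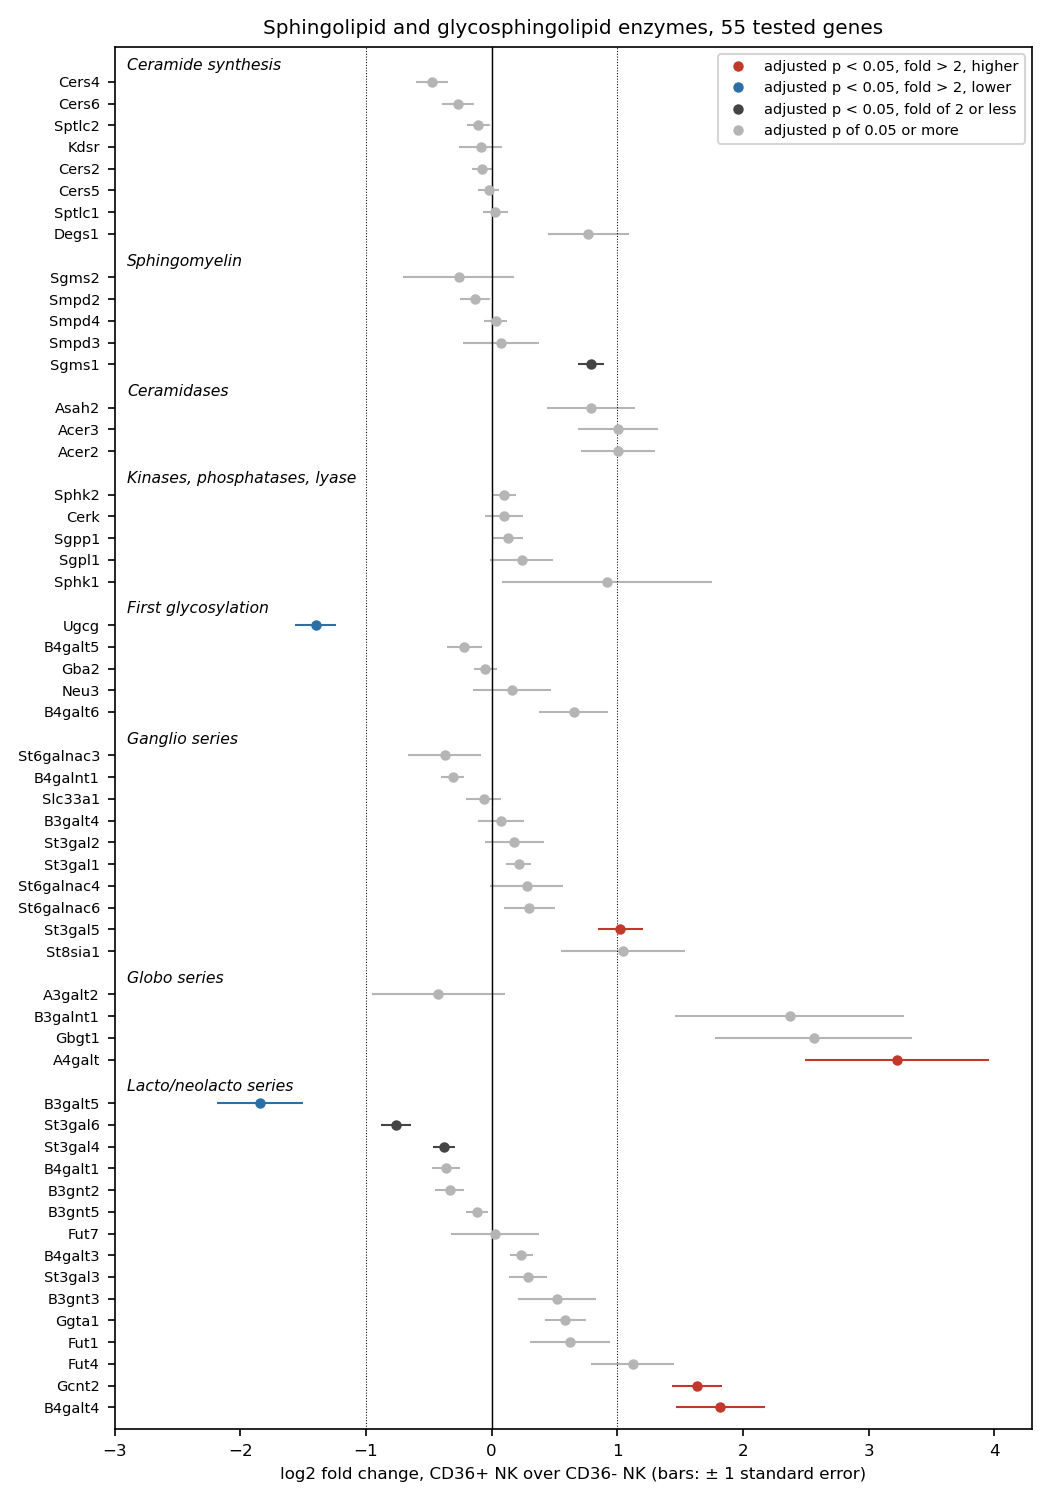
Log2FC of CD36+ NK over CD36- NK (horizontal axis) for the 55 tested enzymes, grouped by role, with bars of 1 standard error and dotted lines at a fold of 2. Ceramide synthesis genes lie near 0 apart from Degs1, Ugcg stands alone on the left of its group, and the series-specific transferases spread from -1.84 (B3galt5) to 3.22 (A4galt).

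The upstream sequences of 3 of the enzymes called higher are shown here, since these genes open or extend separate glycosphingolipid series and did not overlap between the groups. Each is the RefSeq stretch before the first annotated transcript start of the same gene in mouse build GRCm38.p6, printed 5′ to 3′ on the gene's strand. Capitals mark exact matches, on either strand, to a GC box (GGGCGG) or to a T-box core (TCACACC), the kind of site read by the NK cell factors T-bet and Eomes.

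St3gal5, chr6:72097358-72097591, plus strand: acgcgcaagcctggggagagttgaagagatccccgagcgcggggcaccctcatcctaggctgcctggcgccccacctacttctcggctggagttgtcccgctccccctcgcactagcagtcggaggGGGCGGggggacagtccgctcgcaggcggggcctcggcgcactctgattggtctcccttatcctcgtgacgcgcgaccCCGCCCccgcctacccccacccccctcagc
A4galt, chr15:83251775-83251979, minus strand: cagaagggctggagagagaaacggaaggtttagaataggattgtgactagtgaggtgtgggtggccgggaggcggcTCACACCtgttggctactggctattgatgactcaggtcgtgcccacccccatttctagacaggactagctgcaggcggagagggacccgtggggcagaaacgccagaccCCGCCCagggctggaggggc
B4galt4, chr16:38742009-38742258, plus strand: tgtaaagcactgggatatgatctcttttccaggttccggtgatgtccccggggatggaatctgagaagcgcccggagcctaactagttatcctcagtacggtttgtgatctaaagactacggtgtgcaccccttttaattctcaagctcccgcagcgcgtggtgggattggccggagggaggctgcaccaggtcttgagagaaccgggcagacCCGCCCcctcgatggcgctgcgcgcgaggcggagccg

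The St3gal5 stretch is CpG-rich, with 22 CG pairs in 234 bases and 2 GC boxes, and the A4galt stretch has 8 CG pairs in 205 bases, 1 GC box and 1 T-box core. The B4galt4 stretch has 19 CG pairs in 250 bases and 1 GC box. GC boxes were common, occurring in 25.6% to 32.7% of 32851 mouse promoter windows of the same lengths, and the T-box core occurred in 2.75% of windows of the A4galt length. The letters GAGGAAG, a core of the myeloid factor PU.1, were in none of the 3 stretches. These matches describe the letters only.

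De novo ceramide synthesis runs from serine to ceramide. The route starts with serine palmitoyltransferase, whose subunit genes Sptlc1 and Sptlc2 had log2FC values of 0.03 and -0.10. Sptlc1 read 61.5, 58.6 and 69.5 CPM in CD36+ NK and 59.8, 64.3 and 61.5 CPM in CD36- NK, so the groups overlapped throughout. Cers2, which makes ceramides with very long acyl chains, was the most expressed ceramide synthase, at 30.3 CPM per kb of gene length, followed by Cers5 at 10.8 and Cers6 at 6.76. Cers2 averaged 191 ± 9.18 CPM in CD36+ NK and 201 ± 3.28 CPM in CD36- NK (mean ± SD, n = 3 each), and it overlaps Setdb1 on the other strand, which had 36.8% as many counts. Of the 8 genes of this route 0 were called with edgeR's quasi-likelihood test, its exact test or DESeq2, 2 had an unadjusted p below 0.05 (against 3881 of all 14761 genes), and 7 lay within 0.5 of 0 in log2FC (against 11020 of 14761), shares close to those of all genes. Cers4 had the lowest value, -0.47 ± 0.128 (SE; quasi-likelihood adjusted p = 0.0605, exact test of edgeR 0.0456, DESeq2 0.0297), with 25.2 to 28.4 CPM in CD36+ NK below 33.9 to 42.7 CPM in CD36- NK.

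The exception by size was Degs1, the desaturase that introduces the double bond of ceramide. It read 65.9, 70.9 and 146 CPM in the CD36+ NK libraries and 60.3, 62.4 and 42.6 CPM in the CD36- NK libraries. The groups did not overlap, but without CD36+ NK replicate 3 the log2FC was 0.31, and over all libraries the log2FC of 0.77 ± 0.321 (SE) had an edgeR adjusted p of 0.182. The summed level of the route was 569 to 686 CPM in CD36+ NK and 612 to 653 CPM in CD36- NK.

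At the branch point, Ugcg, which leads to glucosylceramide, was lower in CD36+ NK, and of the synthase genes that lead to sphingomyelin Sgms1 was higher while Sgms2 did not pass the test. Ugcg (ENSMUSG00000028381, chromosome 4, from 59189257 to 59222833 in the table's coordinates, whose build is not named) encodes glucosylceramide synthase, the first step of nearly all glycosphingolipids. It read 204, 229 and 233 CPM in CD36+ NK and 520.2, 506 and 730.2 CPM in CD36- NK. Every CD36- NK library was thus above every CD36+ NK library by a wide gap, and the fold change was 2.64 (log2FC -1.40, SE 0.161, edgeR adjusted p = 0.00406). Leaving out single libraries gave log2FC values from -1.50 to -1.22, all of them called.

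Sgms1, the sphingomyelin synthase of the Golgi, read 86.7, 105 and 92.2 CPM in CD36+ NK and 57.0, 56.5 and 50.8 CPM in CD36- NK. The groups did not overlap, and the log2FC of 0.79 ± 0.105 (SE) had an edgeR adjusted p of 0.00637, with a fold change of 1.73 that stays below the fold threshold. Because both genes are counted in the same library, their ratio does not depend on the scaling between libraries. Ugcg had 2.35, 2.17 and 2.52 counts per Sgms1 count in CD36+ NK and 9.13, 8.96 and 14.4 in CD36- NK. The mean log2 ratio was lower by 2.17 in CD36+ NK. This ratio was chosen after the values had been seen, and since each gene separates the groups in the opposite direction the ratio had to separate them too, so it is given as a description with no test.

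The other sphingomyelin genes did not pass the test. Sgms2, the synthase of the plasma membrane, read 16.6, 5.96 and 6.32 CPM in CD36+ NK and 14.4, 12.6 and 7.52 CPM in CD36- NK, with overlapping groups and a large spread (log2FC -0.26, SE 0.442). The neutral sphingomyelinase genes Smpd2, Smpd3 and Smpd4, whose products cut sphingomyelin back to ceramide, had log2FC values of -0.13, 0.08 and 0.03. Smpd2 and Smpd3 overlap genes on the other strand that carry many more counts (Mical1 and Prmt7), and whether counting used strand is not stated, so these values are uncertain.

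Beyond Ugcg, the first glycosylation steps did not pass the test. B4galt5, a lactosylceramide synthase, was at 144 ± 23.1 CPM in CD36+ NK and 168 ± 13.2 CPM in CD36- NK (log2FC -0.22, SE 0.136). B4galt6, the other lactosylceramide synthase gene, had the opposite sign and overlapping groups, spanning 10.7 to 15.04 CPM against 5.76 to 11.7 CPM (log2FC 0.65, SE 0.274, edgeR adjusted p = 0.185). Gba2, the non-lysosomal glucosylceramidase that reverses the Ugcg step, had a log2FC of -0.05 ± 0.0929 (SE), although it too shares its locus with counted genes of the other strand, Rgp1 and Creb3. The summed level of the 5 genes, to which Ugcg added most, was 398 to 456 CPM in CD36+ NK and 740.2 to 978 CPM in CD36- NK.

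**Figure D2:**
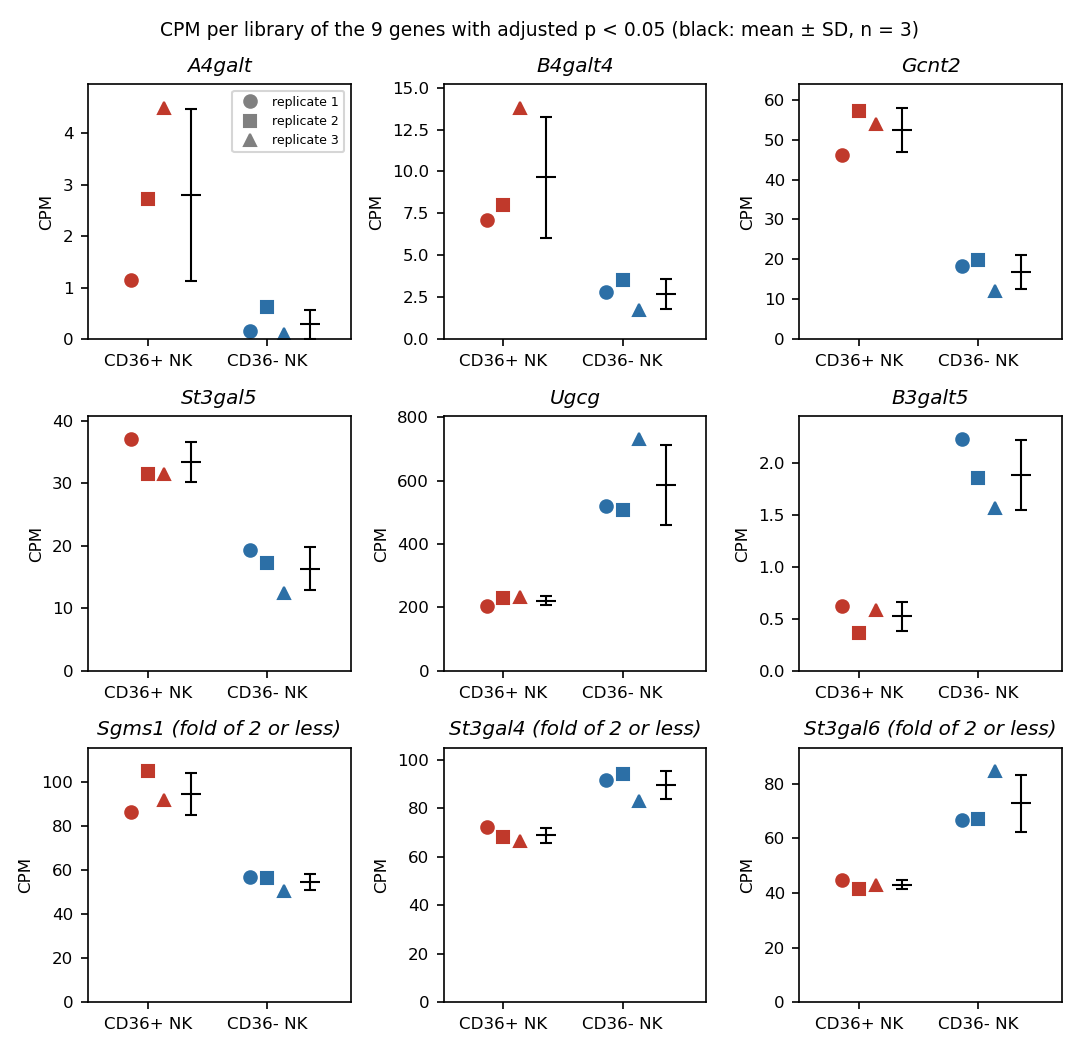
CPM in each library (vertical axes, from 0) of the 9 enzymes with an adjusted p below 0.05, with symbols for replicates and black bars for the mean and SD of 3 libraries. In all 9 panels the CD36+ NK and CD36- NK points do not overlap; Ugcg spans 204 to 233 against 506 to 730.2 CPM, and relative to their means A4galt and B4galt4 spread most within CD36+ NK.

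In the ganglio series, the gene of the entrance enzyme was called higher in CD36+ NK and that of the next step was not called. St3gal5 (ENSMUSG00000056091, chromosome 6, from 72074576 to 72131555 in the table's coordinates) adds sialic acid to lactosylceramide and so makes GM3, the precursor of the gangliosides. It read 37.0, 31.5 and 31.5 CPM in CD36+ NK and 19.3, 17.2 and 12.5 CPM in CD36- NK, and the lowest CD36+ NK library was well above the highest CD36- NK library. Its fold change of 2.03 is just past the threshold (log2FC 1.02, SE 0.178, edgeR adjusted p = 0.0157). The call was lost without CD36+ NK replicate 1 (log2FC 0.93, edgeR adjusted p = 0.0321) and without CD36- NK replicate 3 (0.86, adjusted p = 0.0326), where the fold fell under the threshold, and without CD36+ NK replicate 2 (1.07, adjusted p = 0.0544).

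B4galnt1, which adds N-acetylgalactosamine to give GM2, GD2 and the precursor of asialo-GM1, was the most expressed of all 59 enzymes per gene length, at 84.4 CPM per kb as the mean of both groups, followed by Ugcg at 68.9. In CD36- NK alone the order was the reverse, with Ugcg at 99.9 and B4galnt1 at 93.4 CPM per kb, against 37.8 and 75.3 in CD36+ NK. It read 439, 448 and 393 CPM in CD36+ NK and 537, 508 and 542 CPM in CD36- NK. The groups did not overlap, and the log2FC of -0.31 ± 0.0927 (SE) had an edgeR adjusted p of 0.0781. Counts of St3gal5 per B4galnt1 count were 0.0843, 0.0703 and 0.0801 in CD36+ NK and 0.0359, 0.0339 and 0.0231 in CD36- NK. The mean log2 ratio was higher by 1.36 in CD36+ NK, a description of the same kind with no test.

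Later ganglio enzymes gave 0 further calls. B3galt4, which makes GM1 and asialo-GM1, was at 9.09 ± 1.07 CPM in CD36+ NK and 8.59 ± 1.27 CPM in CD36- NK. St8sia1, the GD3 synthase, read 8.63, 2.502 and 3.08 CPM in CD36+ NK and 2.00, 2.30 and 2.54 CPM in CD36- NK. Only CD36+ NK replicate 1 was clearly higher, the library that also stood apart in T cell, neutrophil and erythroid markers, and the log2FC of 1.05 had a standard error of 0.492 and an edgeR adjusted p of 0.233. St3gal1, a sialyltransferase for terminal galactose, did not overlap between the groups (178, 217 and 199.8 against 169, 176 and 167 CPM), with a log2FC of 0.22 and an edgeR adjusted p of 0.220. The remaining genes of this group, St3gal2, Slc33a1 and the St6galnac genes, overlapped between the groups.

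In the globo series 1 of 4 genes, A4galt, was called (against 5.96% of all genes), and all 4 were at low levels. In 3 of the 4 every CD36+ NK library was above every CD36- NK library, which held for 17.0% of all genes. A4galt (ENSMUSG00000047878, chromosome 15, from 83110923 to 83135975 in the table's coordinates) encodes the transferase that opens the series by making Gb3. It had 13, 37 and 54 counts in CD36+ NK and 2, 7 and 1 counts in CD36- NK, which is 1.16, 2.72 and 4.49 CPM against 0.154, 0.619 and 0.0977 CPM. In CD36- NK replicates 1 and 3 the gene was below 3 counts, taken as the smallest measurable level (0.221 to 0.293 CPM, which covers counting error only). The log2FC was 3.22 ± 0.733 (SE; edgeR adjusted p = 0.0368), the highest of the 55 enzymes. The call was lost without replicate 2 or 3 of CD36+ NK (log2FC 3.24 and 2.71, adjusted p = 0.0995 and 0.114) and without replicate 1 or 3 of CD36- NK (log2FC 2.87 and 2.85, adjusted p = 0.124 and 0.119), by the p and not the fold.

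B3galnt1, which extends Gb3 to globoside, read 2.40, 5.15 and 8.73 CPM in CD36+ NK and 0, 2.12 and 1.07 CPM in CD36- NK. Gbgt1, which extends globoside to the Forssman glycolipid, read 1.60, 3.31 and 4.99 CPM and 0.231, 1.33 and 0.0977 CPM. In both genes the lowest CD36+ NK library was above the highest CD36- NK library, but replicates differed several fold, and the log2FC values of 2.37 ± 0.913 (SE) and 2.56 ± 0.782 (SE) had edgeR adjusted p-values of 0.152 and 0.0833. Gbgt1 was called over all libraries by DESeq2 (adjusted p = 0.0191) and edgeR's exact test (adjusted p = 0.0223), and by the quasi-likelihood test without CD36- NK replicate 2 (edgeR adjusted p = 0.0188). The remaining CD36- NK libraries then had 3 and 1 counts, at or under the smallest measurable level, so no fold is given for that fit. A3galt2, the isoglobo enzyme, overlapped between the groups, and the summed level of the 4 genes was 6.14 to 19.1 CPM in CD36+ NK and 1.92 to 4.69 CPM in CD36- NK.

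The lacto and neolacto group held the calls of Gcnt2 and B4galt4, higher, and B3galt5, lower. Its first committed enzyme did not pass the test: B3gnt5, which turns lactosylceramide into lactotriaosylceramide, read 89.0, 82.0 and 81.5 CPM in CD36+ NK and 87.8, 89.5 and 96.5 CPM in CD36- NK (log2FC -0.12, SE 0.0851). Several enzymes of this group are known to act on the glycans of proteins as well. In 12 of its 15 tested genes the groups did not overlap, against 32.8% of all genes, 7 with CD36+ NK above and 5 below (17.0% and 15.7% of all genes).

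Gcnt2 (ENSMUSG00000021360, chromosome 13, from 41013230 to 41114368 in the table's coordinates) makes the branches of the I antigen on poly-N-acetyllactosamine. It read 46.2, 57.0 and 54.0 CPM in CD36+ NK and 18.4, 19.98 and 12.1 CPM in CD36- NK. All CD36+ NK libraries were more than 2 times above all CD36- NK libraries, and the log2FC was 1.63 ± 0.197 (SE; edgeR adjusted p = 0.00476). Leaving out single libraries gave 1.44 to 1.77, and each of these fits called the gene. The locus has 3 RefSeq start windows, and gene counts cannot separate its alternative first exons.

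B4galt4 (ENSMUSG00000022793, chromosome 16, from 38562626 to 38589411) adds galactose to N-acetylglucosamine in neolacto chains. It read 7.12, 8.02 and 13.8 CPM in CD36+ NK and 2.84, 3.54 and 1.76 CPM in CD36- NK, without overlap (log2FC 1.82, SE 0.355, edgeR adjusted p = 0.0231). Leaving out replicate 2 or 3 of CD36+ NK ended the call by its p (log2FC 1.94 and 1.47, adjusted p = 0.0594 and 0.0664), as did leaving out replicate 1 or 3 of CD36- NK (log2FC 1.84 and 1.58, adjusted p = 0.0834 and 0.0702). B3galt5 (ENSMUSG00000074892, chromosome 16, from 96037001 to 96121059) adds galactose to type 1 chains and to globoside. With 7, 5 and 7 counts in CD36+ NK and 29, 21 and 16 counts in CD36- NK it was among the least expressed enzymes that could be tested, and the groups did not overlap (log2FC -1.84, SE 0.344, edgeR adjusted p = 0.0200). The call was lost without replicate 2 or 3 of CD36+ NK (log2FC -1.63 and -1.93, adjusted p = 0.0836 and 0.0745) and without replicate 1 of CD36- NK (log2FC -1.71, adjusted p = 0.0809), while the fold stayed above the threshold.

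Of the sialyltransferases that cap these chains, St3gal6 read 44.8, 41.3 and 43.0 CPM in CD36+ NK and 66.7, 67.0 and 84.8 CPM in CD36- NK. Its libraries were tight within CD36+ NK and well below all CD36- NK libraries, with a log2FC of -0.76 ± 0.119 (SE; edgeR adjusted p = 0.0110) and a fold of 1.69. The adjusted p was 0.0564 without CD36+ NK replicate 2. St3gal4 had a log2FC of -0.38 ± 0.0887 (SE; edgeR adjusted p = 0.0390), but its adjusted p was 0.131 without CD36+ NK replicate 2, 0.139 without CD36+ NK replicate 3 and 0.118, 0.1002 and 0.0567 without CD36- NK replicates 1, 2 and 3. St3gal4 also overlaps a gene of the other strand, 4930581F22Rik, which had 28.5% as many counts. St3gal3, the related enzyme, overlapped between the groups (log2FC 0.29).

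The galactosyltransferase B4galt1 was at 125 ± 9.44 CPM in CD36+ NK and 160.3 ± 18.1 CPM in CD36- NK, and B3gnt2, which starts poly-N-acetyllactosamine, was at 100.2 ± 12.9 and 126 ± 6.37 CPM. Both were lower in every CD36+ NK library but missed the adjusted p threshold (0.0891 and 0.114 with edgeR). Ggta1, which makes the alpha-gal epitope of non-primate mammals, and Fut4, a fucosyltransferase of Lewis X, lay above in every CD36+ NK library, with log2FC values of 0.59 and 1.12 and edgeR adjusted p-values of 0.0675 and 0.0749. Fut4 was called over all libraries by DESeq2 (adjusted p = 0.0120) and edgeR's exact test (adjusted p = 0.0163), and by the quasi-likelihood test without CD36- NK replicate 2 (log2FC 1.52, edgeR adjusted p = 0.0205). B4galt3, a further galactosyltransferase gene, also lay above in every CD36+ NK library (log2FC 0.24, SE 0.0904, edgeR adjusted p = 0.149), and it overlaps Ppox on the other strand, which had 97.3% as many counts.

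Ceramidases and the S1P enzymes gave 0 calls with edgeR's quasi-likelihood test over all libraries. The alkaline ceramidase genes Acer2 and Acer3 had log2FC values of 1.01 and 1.00 (standard errors 0.294 and 0.317, edgeR adjusted p = 0.0734 and 0.0919). Acer2 did not overlap between the groups (1.62 to 2.05 against 0.781 to 1.08 CPM), while Acer3 did (46.4 to 86.4 against 23.9 to 49.5 CPM). The neutral ceramidase gene Asah2 had 0.79 ± 0.351 (SE). An unadjusted p below 0.05 was found for 2 of these 3 genes, and the exact test of edgeR called 1, Acer3 (log2FC 1.004, adjusted p = 0.0217). DESeq2 called 0, with Acer3 just under the fold threshold (log2FC 0.997, adjusted p = 0.0134). Acer3 was called without CD36+ NK replicate 1 (log2FC 1.21, edgeR adjusted p = 0.0444) and without CD36- NK replicate 2 (1.35, adjusted p = 0.0290), and Asah2 without CD36- NK replicate 2 (1.27, adjusted p = 0.0288).

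Of the S1P enzymes, Sphk2 was the more expressed sphingosine kinase gene, at 7.14 CPM per kb against 0.176 for Sphk1. Sphk2 had a log2FC of 0.10 ± 0.0971 (SE), though it overlaps Rpl18 and Dbp on the other strand. Sphk1 read 7.65, 0.809 and 2.16 CPM in CD36+ NK and 2.84, 2.03 and 0.586 CPM in CD36- NK, so its groups overlapped widely. The ceramide kinase gene Cerk, the S1P phosphatase gene Sgpp1 and the S1P lyase gene Sgpl1 had log2FC values of 0.10, 0.13 and 0.24, and in all 5 tested genes of this group the CPM of the groups overlapped, against 32.8% of all genes without overlap. An unadjusted p below 0.05 was found for 0 of the 5 (against 3881 of all 14761 genes), and DESeq2 and the exact test of edgeR also called 0 of them. The 4 enzymes that could not be tested, B3galt2, B4galnt2, B4galt2 and Sgpp2, had 10 to 44 counts over the 6 libraries.

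**Figure D3:**
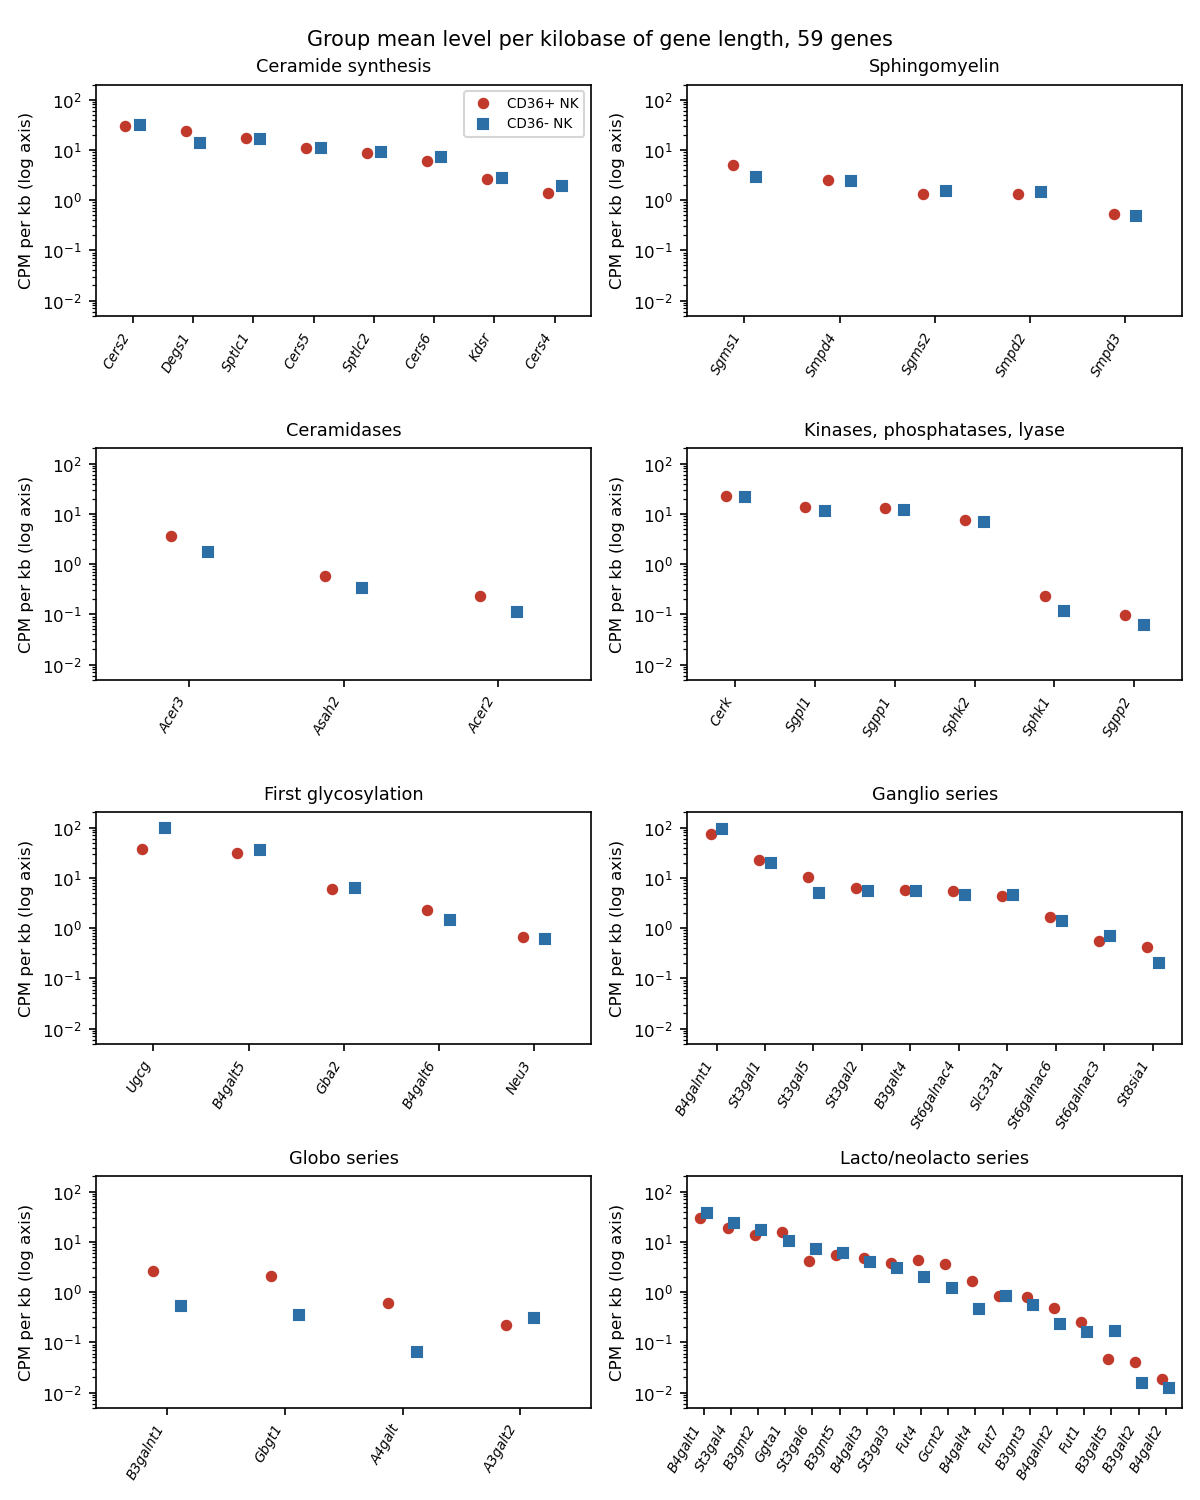
Mean CPM per kilobase of gene length in CD36+ NK (red circles) and CD36- NK (blue squares) for all 59 enzymes, on log axes, ordered within each role by level. Levels run from B4galt2 at 0.0154 to B4galnt1 at 84.4 over both groups; the widest gaps between the groups are in the globo series and among low genes of the lacto and neolacto series.

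The order of the 6 libraries was then set beside the marker levels, after the values had been seen. Macrophage and Kupffer cell markers ranked the libraries from CD36+ NK replicate 3 (9368 CPM) through CD36+ NK replicates 2 and 1 and CD36- NK replicates 2 and 1 to CD36- NK replicate 3 (2472 CPM), and the NK cell markers gave exactly the reverse order. Degs1, A4galt, Gbgt1, B4galt4, Fut1 and Fut4 followed the macrophage order in all 6 libraries. They were 10.9% of the tested enzymes, against 3.5% of all tested genes. Within each group taken alone, 8 enzymes (14.5%) followed it, against 6.17% of all genes, the further ones being Acer3 and St3gal2. Gcnt2 departed from the macrophage order only in CD36+ NK replicates 2 and 3, which were close (57.0 and 54.0 CPM). Ugcg followed the NK marker order within CD36- NK and ran in the reverse of that order within CD36+ NK. There the libraries read 204, 229 and 233 CPM beside NK markers of 1385, 1379 and 1133 CPM. The NK markers of CD36+ NK replicates 1 and 2 were nearly tied, so the order of these libraries rests on a small difference. St3gal5 and Acer2 followed the order of the B cell markers in all 6 libraries, as 0.603% of all genes did. For St3gal5 that order rests on a near tie, since replicates 2 and 3 of CD36+ NK both read 31.5 CPM, and Acer2 and Fut1 had at most 23 and 14 counts in a library, so neighbouring libraries differed by few counts. The order of CD36- NK replicates 1 and 3 could not be measured for A4galt (2 and 1 counts) and rests on 3 and 1 counts for Gbgt1. Sgms2 followed the neutrophil markers (764 to 4497 CPM), as 0.271% of all genes did, with CD36+ NK replicate 1 highest in both. The part of these cells in the values was not tested.

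**Figure D4:**
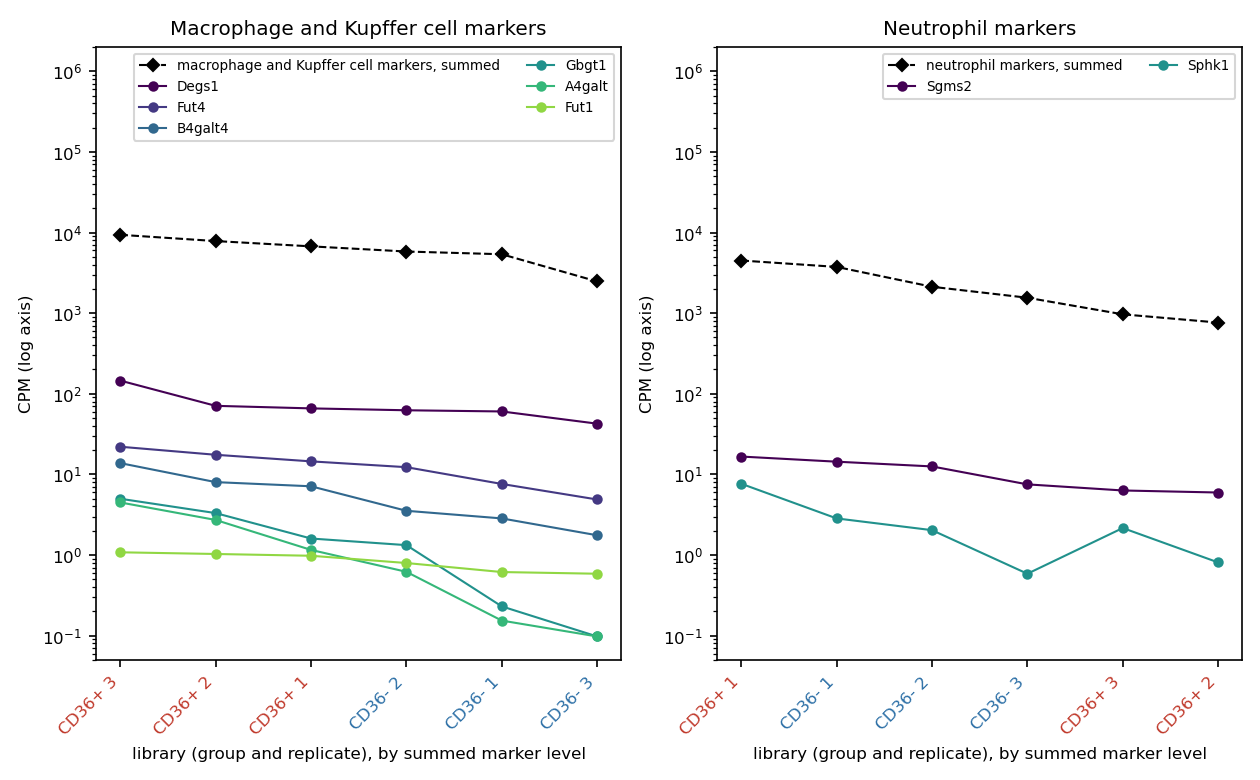
CPM on a log axis in the 6 libraries, ordered by the summed markers (black diamonds) of macrophages and Kupffer cells (left) and of neutrophils (right), with library labels in red for CD36+ NK and blue for CD36- NK. On the left all 6 enzymes decline with the markers from CD36+ NK replicate 3 to CD36- NK replicate 3; on the right Sgms2 declines with the neutrophil markers from 16.6 to 5.96 CPM, and Sphk1 starts at 7.65 CPM in the same library but does not keep the order.

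Lists of neighbouring steps were read from the same fit. All 13 tested genes of lysosomal sphingolipid breakdown had log2FC values above 0 (median 0.44), against 51.9% of all genes, and in 9 of them CD36+ NK was above without overlap, against 17.0% of all genes, but 0 were called and 9 had an unadjusted p below 0.05 (against 3881 of all 14761 genes). The adjusted p was below 0.05 for Asah1, the acid ceramidase (log2FC 0.99, edgeR adjusted p = 0.0233), and Gm2a, the GM2 activator (0.98, adjusted p = 0.0424). Asah1 read 153, 202 and 217 CPM in CD36+ NK and 103, 111 and 73.0 CPM in CD36- NK, and the summed level of the list was 4703 to 6696 against 2523 to 4163 CPM. This sum ranked the 6 libraries in the same order as the macrophage and Kupffer cell markers, whose part in it was not tested. The gene Psap made up most of the sum and alone gave the same order (log2FC 0.73, edgeR adjusted p = 0.108). Of 10 tested genes for sphingolipid transfer and regulation 0 were called, 5 had an unadjusted p below 0.05 and 6 did not overlap between the groups, 2 above and 4 below (against 32.8%, 17.0% and 15.7% of all genes), with Ormdl3, an inhibitor of serine palmitoyltransferase, at -0.39 (edgeR adjusted p = 0.0390). Of 7 genes for S1P export and receptors, 1 was called (14.3%, against 5.96% of all genes), the receptor S1pr3 (44.3, 64.5 and 63.4 against 21.9, 23.1 and 14.7 CPM, log2FC 1.53, edgeR adjusted p = 0.00776). S1pr1 was at 0.58 (adjusted p = 0.0175), and the receptors S1pr4, S1pr2 and S1pr5, the last of which guides NK cell egress, were at -0.71, -0.65 and -0.74 (adjusted p = 0.0538, 0.0626 and 0.0767), each without overlap between the groups. When single libraries were left out the highest adjusted p was 0.0840 for Asah1, 0.134 for Gm2a, 0.132 for Ormdl3 and 0.0723 for S1pr1, while S1pr3 was called in each of these fits. Asah1, at a fold just under the threshold over all libraries, was called without CD36+ NK replicate 1 (log2FC 1.12), without CD36- NK replicate 2 (1.11) and with no filter on low counts (1.002). Without CD36- NK replicate 2 the call was also gained by Gm2a (1.23) and Galc, the galactosylceramidase (1.14), and Galc was called without CD36+ NK replicate 1 as well (1.18).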

How the data were processed

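RNA-seq counts of the 3 CD36+ NK and 3 CD36- NK libraries were taken from 1 table of 57180 genes. Reads had been filtered (Seqtk), aligned with HISAT2 (version 2.0.4 in the submitters' processing notes) and summarised as fragments per gene (StringTie) by the authors, and the deposited counts are not normalized. The deposited FPKM values are the counts divided by gene length and library total, and they served only to derive the lengths behind CPM per kb. The notes name the rat build mRatBN7.2, whereas the table holds mouse genes, so the table's coordinates are given without a build. Broken lines of 2 genes were rejoined. Library names use the sign of CD36, and in part the replicate number, in another way than the sample titles, and the titles were followed.

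Counts were analysed with edgeR 4.0.16 in R 4.3.3. Genes were kept by filterByExpr with a minimum count of 10 (14761 genes), libraries were scaled by TMM, and groups were compared by the quasi-likelihood test with no block and Benjamini-Hochberg adjustment over all kept genes. The SE of a log2FC is its absolute size over the root of the F statistic. The fold and adjusted p thresholds (2 and 0.05) are those of the study's methods. The scripts were tested on simulated data. The biological coefficient of variation was 20.3%, and replicates differed by more than sampling noise (chi-square per degree of freedom 15.0 to 29.6). The smallest level was taken as 3 counts.

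The enzymes, their roles, the neighbouring pathway lists and the marker lists were chosen with earlier results of these data known. Named were Cd36, every called enzyme, every enzyme with an adjusted p below 0.05, the 2 most expressed of each role, the enzymes of committed steps, the 3 of lowest p whose groups did not overlap but which missed the call, and the called or lowest-p genes of the pathway lists; others were named after their values had been seen. Ugt8a and Gal3st1, also on that list, carry a barred entry and had too few counts to test. RefSeq windows matched 54 of the 59 enzymes. The 3 printed stretches end before the first annotated transcript start of their own gene in the window, and transcripts of other genes were not checked. As alternatives, each replicate was left out in turn, and DESeq2 1.42.0, the exact test of edgeR, other scalings, filters, blocks and fold thresholds were tried.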

Additional observations from a re-analysis of the deposited data

How the results depend on the processing

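Of the 55 tested enzymes 6 were called, 4 higher and 2 lower, 9 had an adjusted p below 0.05, and 880 of all genes were called. RLE and upper-quartile scaling, no filter on low counts and a block on the form of the library name left 6 calls, 4 higher and 2 lower. These were 10.9%, 10.9%, 10.2% and 10.9% of the tested enzymes, against 5.95%, 6.01%, 2.78% and 6.18% of all genes in the same fits. DESeq2 called 8 enzymes (6 higher) and 1143 genes, with 15 enzymes at an adjusted p below 0.05, and edgeR's exact test called 9 (7 higher) and 1243 genes, with 14 at that p. A fold above 1.5 gave 8 calls, 3 of them lower, and 1304 among all genes. Requiring 10 counts in every library removed A4galt, B3galt5 and others from the test and left 4 calls, 3 higher and 1 lower. With the replicate number as a block, 3 enzymes were called, 2 higher and 1 lower, 5 had an adjusted p below 0.05, and 560 genes were called; A4galt, B3galt5 and B4galt4 lost the call. Deviations of libraries with the same title number from their group means correlated at 0.310, 0.0515 and -0.0837 across genes, so these numbers were not taken as pairs. Library names number some CD36- NK libraries otherwise than the titles, and pairs by those numbers were not checked. Replicates 2 and 3 alone, added after seeing the data because replicate 1 has library names of another form, gave 2 calls, 1 higher and 1 lower, with 3 at an adjusted p below 0.05 and 433 calls among all genes. Leaving out single replicates gave 2 to 10 enzymes called, 1 to 8 higher and 1 to 2 lower, 3 to 12 with an adjusted p below 0.05, and 417 to 1160 calls among all genes. Which property of the data makes the count move was not tested. Levels under 3 counts, as of A4galt in part of the CD36- NK libraries, limit the size of its fold change.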
